A study of Drosophila melanogaster with 4 samples.

Results

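The eye of *Drosophila melanogaster* is built by a small set of regulators, 10 of which are described here from 3′-seq of adult wild-type heads: *gl*, *so*, *oc*, *Pph13*, *pros*, *salm*, *ss*, *dve*, *wts* and *melt*. They were listed by name, 8 as transcription factors of photoreceptor identity and subtype and *wts* and *melt* as the switch between photoreceptor subtypes, and all 10 were found among the 13608 genes of the count table. The series has 4 replicates of 1 condition, untreated adult heads labelled wild type. The study's methods give *w1118* as its control stock, which lacks the product of the eye color gene *white*, and state that males and females were used, whereas the series record speaks of independent wild-type lines. No label gives the sex or age of these flies, which were raised at 25 °C. RNA came from cross-linked head powder, a mix that includes eye, brain, glia, fat and cuticle. Fewer photoreceptors and less RNA per photoreceptor thus cannot be told apart. Markers of midgut, male accessory gland and flight muscle, which lie outside the head, also had counts, with their highest sums in replicate 1. As all samples belong to 1 condition, groups could not be compared, and the values are descriptions over replicates. No label says that these came from separate cultures or from the same line. Their spread may thus be partly technical or partly between lines, which cannot be told apart here.

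Each ommatidium of the fly eye holds outer photoreceptors, which express the opsin Rh1, and the inner photoreceptors R7 and R8. Zinc finger and homeodomain proteins first give cells a retinal and photoreceptor identity, and a later set of factors decides whether R7 makes Rh3 or Rh4 and whether R8 makes Rh5 or Rh6. In R7 the choice follows the presence of the Spineless protein, and in R8 it follows mutual repression between *warts* and *melted*. Several of these genes stay on in the adult eye to maintain opsin expression, and several also act elsewhere in the head.

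In 3′-seq a read marks the end of a transcript, so the number of reads does not grow with transcript length and levels of different genes can be set side by side as counts per 1000000 counts on genes (CPM). Libraries held 8753359 to 13434565 counts on genes, so that 1 count was worth 0.0744 to 0.114 CPM. By counting error alone, a count of 0 allowed up to 0.223 to 0.343 CPM (3 counts). The reads carry no molecular identifiers, and intervals cover counting error only. All 14 photoreceptor markers, led by *Arr2*, *Arr1* and *norpA*, reached 10 counts in each replicate, and their sum lay between 29704 and 39735 CPM, the highest value in replicate 1. All 6 neuron markers passed the same minimum and summed to 1970 to 2771 CPM. Midgut markers were at 1045 CPM in replicate 1, against 145 to 212 CPM in the others. The share of all genes at 0 counts was lowest in replicate 1 (16.0%) and highest in replicate 3 (32.4%).

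Of the 10 genes, 6 (*pros*, *wts*, *Pph13*, *so*, *gl* and *oc*) had at least 10 counts in every replicate, where 57% of all genes did. The other 4 (*salm*, *melt*, *ss* and *dve*) fell under 10 counts in at least 1 replicate. Together the 10 genes had 676 ± 24.4 CPM (SD, n = 4). *pros* alone held 71.8% of these counts and *wts* 19.3%, and the 8 remaining genes summed to 57.5 ± 22.5 CPM (SD, n = 4). The median of the 10 mean levels was 8.43 CPM, against 10.8 CPM over the 11890 genes with a count in any replicate.

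Because reads sit at transcript ends, the annotated ends of these genes and of their neighbours set what each count can hold (Ensembl annotation of dm6). *gl* (FBgn0004618) lies at chr3R:18367927-18372738 on the minus strand, and its 3 transcripts share 1 end. Only 13 bp separate this end from the end of *Nup43* on the opposite strand. *melt* (FBgn0023001), at chr3L:7134516-7143074 on the plus strand, overlaps the gene *corn* on the opposite strand by 84 bp, and the overlap holds the ends of both genes. The strand setting of the counting is not given in the sources used here, so *melt* and *corn* may share or lose reads there, and the counts of *melt* are uncertain. *corn* itself had 635, 301, 309 and 388 counts in replicates 1 to 4. *wts* (FBgn0011739), at chr3R:30789625-30806619 on the minus strand, has 1 annotated transcript and ends 422 bp from *zfh1*.

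*pros* (FBgn0004595) spans 79148 bp on the plus strand (chr3R:11328480-11407627) and has 3 annotated 3′ ends. Its first end lies 14431 bp before the last, and its longest 3′UTR measures 15530 nt, the longest of the 10 genes. The counts add up reads over all its ends, and internal priming within so long a UTR was not examined here. *ss* (FBgn0003513), at chr3R:16374434-16403690 on the minus strand, has 2 ends that are 850 bp apart. The other genes each have 1 annotated end. These are *oc* (FBgn0004102) at chrX:8630159-8650681 (minus strand), *Pph13* (FBgn0023489) at chr2L:577486-579549 (plus strand), *salm* (FBgn0261648) at chr2L:11434311-11445614 (minus strand), *dve* (FBgn0020307) at chr2R:22243963-22286469 (plus strand) and *so* (FBgn0003460) at chr2R:7419350-7434872 (plus strand). *CG11145*, which lies within *so* on the opposite strand, stays 6278 bp away from the end of *so*.

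**Figure D1:**
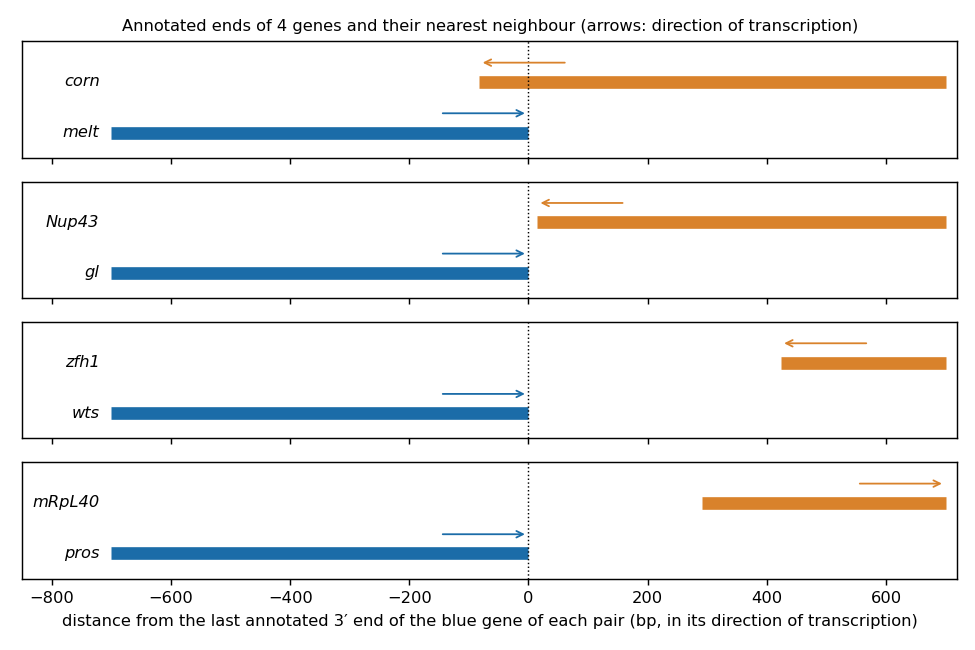
Annotated ends of *melt*, *gl*, *wts* and *pros* (blue) and of the nearest protein-coding neighbour (orange), as distance in bp from the last annotated 3′ end of the blue gene, with arrows for the direction of transcription and bars drawn only within 700 bp. *corn* overlaps the end of *melt* by 84 bp, *Nup43* stops 13 bp from *gl*, *zfh1* stops 422 bp from *wts*, and *mRpL40* begins 290 bp after *pros*.

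The genes of retinal and photoreceptor identity were detected at moderate levels. *gl* encodes Glass, a zinc finger protein without which photoreceptor precursors do not become photoreceptors. It had 188, 110, 29 and 86 counts in replicates 1 to 4, which gave 14.0, 9.89, 3.31 and 8.05 CPM. The mean was 8.81 ± 4.43 CPM (SD, n = 4), and replicate 3 lay below the others, with a 95% Wilson interval of 2.31 to 4.76 CPM against 6.52 to 9.94 CPM for the next lowest. *so* encodes Sine oculis, a SIX-family homeodomain protein that works in a complex with Eyes absent. Its counts were 131, 198, 48 and 115, or 9.75, 17.8, 5.48 and 10.8 CPM, with a mean of 10.95 ± 5.11 CPM (SD, n = 4). Here the highest value was in replicate 2 and the lowest in replicate 3, and replicates 1 and 4 overlapped within counting error.

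*Pph13* encodes a homeodomain protein of photoreceptors that is needed for the light-sensing membrane and for genes of phototransduction. It was the most abundant of these 4 genes in every replicate, with 491, 253, 85 and 309 counts, or 36.5, 22.7, 9.71 and 28.9 CPM. Its mean was 24.5 ± 11.4 CPM (SD, n = 4), and replicate 3 was again the lowest. Within a library, *Pph13* exceeded *gl* by a ratio of 2.30 to 3.59, and the 95% exact intervals of the ratio ranged over 1.83 to 4.64 across replicates. The ratio of these genes thus moved less between replicates than the level of either, which spanned 3.76-fold for *Pph13* and 4.22-fold for *gl*.

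*oc* encodes Orthodenticle, a homeodomain protein of the head, the ocelli and the photoreceptors that activates *Rh3* and *Rh5* and represses *Rh6*. It had 167, 111, 58 and 34 counts, or 12.4, 9.98, 6.63 and 3.18 CPM, and a mean of 8.06 ± 4.03 CPM (SD, n = 4). Its lowest value was in replicate 4, unlike *gl*, *so* and *Pph13*. The 95% Wilson interval there, 2.28 to 4.45 CPM, did not reach that of the next lowest replicate, 5.13 to 8.56 CPM. Replicate 4 was at 0.329 of the mean of the other replicates, and at 0.303 with TMM scaling, 0.2996 with DESeq2 size factors and 0.318 when scaled by photoreceptor markers. Within the library, the ratio of *oc* to *Pph13* was 0.340, 0.439, 0.682 and 0.110 in replicates 1 to 4.

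*pros* and *salm* act in the inner photoreceptors. *pros* encodes Prospero, a homeodomain protein that represses the R8 opsins in R7 and that also marks neurons, glia and enteroendocrine cells of the gut. It had 6436, 4915, 4506 and 5461 counts, or 479, 442, 515 and 511 CPM. Its mean of 487 ± 33.9 CPM (SD, n = 4) ranked 345 among the 13608 genes. In CPM the replicates spanned only 1.16-fold, the narrowest range of the 7 genes with counts in every replicate. With TMM scaling they lay further apart. The lowest was then replicate 1 in place of replicate 2, at 0.807 of the mean of the others, and replicate 3 was at 1.34. *salm* encodes Spalt major, a zinc finger protein that gives R7 and R8 their inner identity. Its counts were 66, 29, 6 and 35, or 4.91, 2.61, 0.685 and 3.28 CPM, with a mean of 2.87 ± 1.75 CPM (SD, n = 4). Replicate 3 was the lowest, at 0.190 of the mean of the others, and the range was 7.17-fold. Its neighbour and paralog *salr*, with partly shared functions, had 131, 86, 78 and 54 counts and exceeded *salm* in each replicate, by a ratio of 1.54 to 13. In replicate 4 the exact interval of that ratio, 0.990 to 2.43, included equal counts.

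The genes that split R7 into subtypes were near the limit of these libraries. *ss* encodes Spineless, a bHLH-PAS protein that is switched on in a random subset of R7 cells and leads to *Rh4*, and that also specifies the antenna. It had 13, 0, 13 and 6 counts, or 0.968, 0, 1.49 and 0.562 CPM, and a mean of 0.754 ± 0.629 CPM (SD, n = 4). The other replicates predicted 11.2 counts in replicate 2, where *ss* was at 0. Of 887 genes with a predicted count within a factor of 1.5 of this, 47.2% were also at 0 in that library. *dve* encodes Defective proventriculus, a homeodomain repressor of opsin genes that also acts in the midgut. Its counts were 10, 4, 0 and 6, or 0.744, 0.360, 0 and 0.562 CPM, with a mean of 0.416 ± 0.319 CPM (SD, n = 4). In replicate 3, 76.5% of genes with a like prediction were at 0. The ratio of *ss* to *dve* was 1.30 in replicate 1 (95% exact interval 0.527 to 3.31) and 1 in replicate 4 (0.267 to 3.74), both of which include equal counts. In replicate 2, with 0 counts of *ss* and 4 of *dve*, the interval of 0 to 1.51 also included equal counts. In replicate 3, where *dve* was at 0, the ratio was 4.33 with *dve* set at 3 counts in that library, and the lower limit of the exact interval was 3.05. Only this interval excluded equal counts. It covers counting error alone, and a 0 was the usual outcome in that library for genes predicted like *dve* (76.5%). A difference between *ss* and *dve* is therefore not read from it.

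*wts* and *melt* set the subtype of R8. *wts* encodes Warts, the kinase of the Hippo pathway, which also limits tissue growth and in R8 leads to *Rh6*. *melt* encodes Melted, a PH-domain protein of insulin and TOR signaling, which in R8 leads to *Rh5*. *wts* had 1602, 1538, 1406 and 1174 counts, or 119, 138, 161 and 110 CPM. Its mean was 132 ± 22.4 CPM (SD, n = 4), and the replicates spanned 1.46-fold. *melt* had 28, 0, 0 and 26 counts, or 2.08, 0, 0 and 2.43 CPM, and a mean of 1.13 ± 1.31 CPM (SD, n = 4). It was thus present in replicates 1 and 4 and at 0 in replicates 2 and 3, where the others predicted 16.8 and 13.2 counts. Of genes with a like prediction, 32.8% were at 0 in replicate 2 and 48.9% in replicate 3. Without replicate 4 the mean of *melt* was 0.695 CPM.

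The order of *wts* over *melt* was the same in every library. The ratio of their counts was 57.2 in replicate 1 (95% exact interval 39.4 to 86.4) and 45.2 in replicate 4 (30.7 to 69.4). With *melt* set at 3 counts in the library, the ratio was 513 in replicate 2 and 469 in replicate 3. The lower limits of the exact intervals, which also take in the counting error of *wts*, were 416 and 381. All of these values allow for counting error only. In those libraries 32.8% and 48.9% of genes predicted like *melt* were also at 0, so they are not firm lower bounds of the ratio. *wts* is on in many cell types of the head, and the counts do not show its level in R8. The overlap of *melt* with *corn* bears on each of these ratios.

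**Figure D2:**
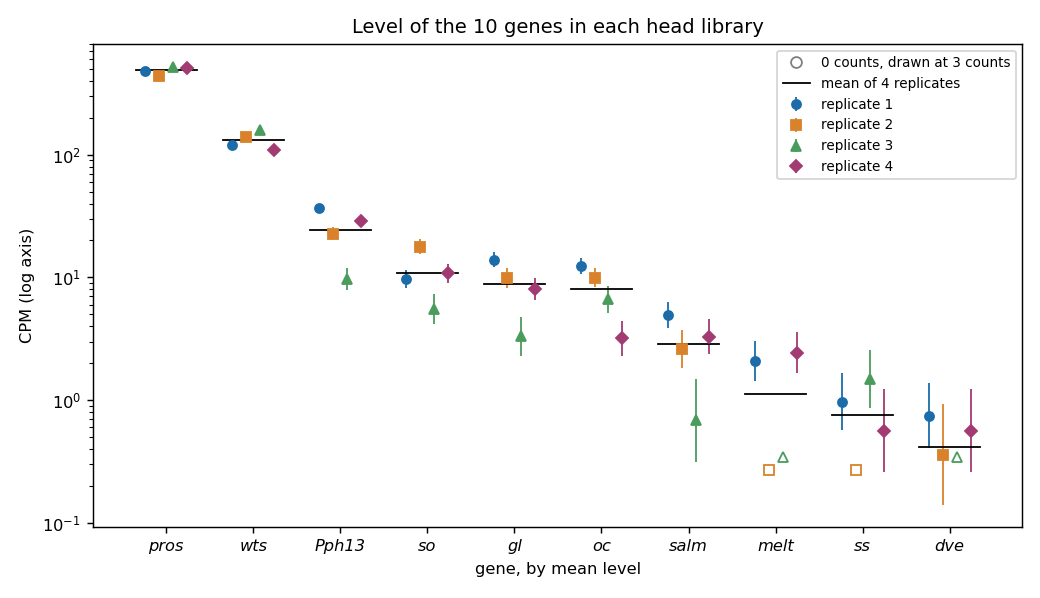
CPM (log axis) of the 10 genes in replicates 1 to 4, with 95% Wilson intervals as bars, the mean as a black line, and 0 counts drawn as open symbols at the value of 3 counts. *pros* and *wts* stand apart at means of 487 and 132 CPM, *Pph13*, *so*, *gl* and *oc* lie between 3.18 and 36.5 CPM, and *melt*, *ss* and *dve* reach at most 2.43 CPM.

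By mean level the order was *pros*, *wts*, *Pph13*, *so*, *gl*, *oc*, *salm*, *melt*, *ss* and *dve*. Of the 45 pairs of genes, 31 did not overlap between their 4 values, and 37 kept 1 order in every replicate. Every pair with *pros* or *wts* was among the 31. Pairs of other genes were not counted in this way, so the 31 and 37 are not read as a trait of the genes described here. *pros* over *wts* and *wts* over *Pph13* were the neighbours in this order whose values did not overlap. *Pph13* exceeded *so* and *salm* exceeded *melt* in all 4 replicates, though their ranges overlapped. *so*, *gl* and *oc* could not be ordered beyond their spread, since *so* was above *gl* in 3 of 4 replicates and *gl* above *oc* in 2 of 4. *melt*, *ss* and *dve* could not be ordered either.

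The 2 most abundant genes varied least between replicates. For the 8 genes that averaged 10 counts or more, the median coefficient of variation of CPM was 0.483, against 0.384 over all 9532 genes that did, and 6 of the 8 lay above that value. The 9532 genes were not matched in level to the 8. With TMM, DESeq2 size factors or scaling by photoreceptor markers, 5 of the 8 lay above the median of all genes. Without replicate 3 the median of the 8 was 0.308, against 0.313 over all genes, and 4 of 8 lay above. *pros* and *wts* had coefficients of 0.0697 and 0.170, whereas those of *Pph13*, *so*, *oc* and *gl* lay between 0.464 and 0.503. These coefficients are of CPM. With TMM scaling, replicate 3 was at 1.34 of the mean of the others for *pros* and at 1.61 for *wts*, against 1.08 and 1.31 in CPM. edgeR put the biological coefficient of variation of *gl* at 0.531, against 0.582 for genes of its level, and for *pros* 0.306 against 0.372. The name is that of edgeR, and technical spread may be part of it. The fit also draws the value of a gene towards that of its level, so each pair is close in part by construction. The same pair of values was 0.409 and 0.412 for *Pph13*, 0.495 and 0.524 for *so*, and 0.568 and 0.597 for *oc*. It was 0.344 and 0.372 for *wts*, 0.847 and 1.01 for *salm*, and 1.69 and 1.31 for *melt*. How many of all 9532 genes lie below the value of their level was not counted. These differences are therefore not read as a trait of the genes described here.

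Replicate 3 was the lowest replicate for 4 of these 8 genes (*Pph13*, *so*, *gl* and *salm*), where it was the lowest for 44.2% of the 9532 genes. Replicate 1 was the highest for 4 of the 8 (*Pph13*, *gl*, *oc* and *salm*), and for 38.1% of all. Both counts were thus close to those of the libraries as a whole. The 8 genes other than *pros* and *wts* summed to 81.4, 63.4, 27.3 and 57.8 CPM in replicates 1 to 4. Photoreceptor markers took 3.97%, 3.06%, 2.97% and 3.49% of the counts, and with levels scaled by them this sum was still lowest in replicate 3, at 0.477 of the mean of the others. *Arr2* made up 15637 CPM of the markers' mean sum of 33728 CPM, so this scaling follows *Arr2* more than any other marker. For genes predicted at a count like that of *gl* in replicate 3, the median ratio of observed to predicted counts was 0.632, and for *gl* it was 0.311. The ratios of *Pph13* (0.330 against 0.741), *so* (0.429 against 0.662) and *salm* (0.190 against 0.433) were also below those of like genes. Those of *oc* (0.777 against 0.613), *wts* (1.31 against 0.861), *pros* (1.08 against 0.961) and *ss* (2.91 against 0) were above. *melt* and *dve* had 0 counts there.

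Mean levels of the opsins were 3662 CPM for *ninaE*, the gene of Rh1, 400.3 CPM for *Rh5*, 329.6 CPM for *Rh3*, 267 CPM for *Rh4*, 126 CPM for *Rh6*, 103 CPM for *Rh2* and 72.2 CPM for *Rh7*. *oc*, *wts* and *pros* can be set beside the inner opsins, whose levels differed between libraries. In replicate 4, in which *oc* was lowest, *Rh3* and *Rh5* were at 0.128 and 0.120 of the mean of the others, *Rh4* had 12 counts, and *Rh6* was at 2.14. *Rh5* exceeded *Rh6* by a ratio of 3.83, 6.40 and 8.62 in replicates 1, 2 and 3 and was below it in replicate 4, at 0.294. In that library *wts* was at 0.789 of the mean of the others and *melt* had its highest level, while in replicates 2 and 3 *melt* was at 0 and *Rh5* above *Rh6*. *ss* had 6 counts in replicate 4 and 0 in replicate 2, where *Rh4* had 3479 counts. *Pph13*, at 1.26, and *gl*, at 0.888, stood near the mean of the others in replicate 4, and so did *pros*, at 1.07. The *oc* and opsin values of replicate 4 were set side by side after they had been seen, they come from 1 library, and a link between them was not tested.

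**Figure D3:**
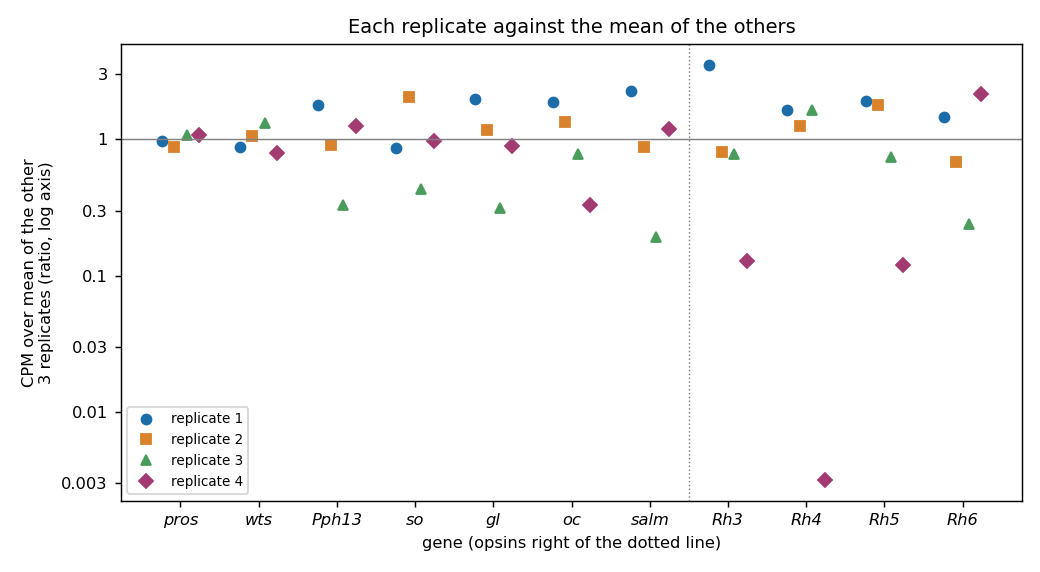
CPM of each replicate over the mean of the other 3 (ratio, log axis) for the 7 genes with counts in every replicate and, right of the dotted line, for 4 inner opsins. In replicate 4 (diamonds) *oc* is at 0.329, *Rh3* at 0.128, *Rh4* at 0.00316 and *Rh5* at 0.120, whereas *Rh6* is at 2.14, and in replicate 3 (triangles) *Pph13*, *so*, *gl* and *salm* lie between 0.190 and 0.429.

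Related genes from 4 lists were measured in the same libraries: retinal determination, photoreceptor fate and subtype partners, the Hippo pathway, and the BMP and Activin pathway, whose signals act on the R8 switch. Of their 40 genes in the table, 30 had at least 10 counts in every replicate (75.0%, against 57% of all genes). The retinal determination genes, which act with *so* in the eye primordium, passed in 8 of 8 cases. They were led by *toy* at 87.4 ± 6.41 CPM, *Optix* at 49.0 ± 15.7 CPM and *eyg* at 29.5 ± 5.30 CPM (SD, n = 4). *eya*, the partner of *so*, was lower, with 116, 27, 38 and 32 counts, and the ratio of *so* to *eya* ranged from 1.13 to 7.33 across replicates. In replicate 3 its exact interval, 0.808 to 1.99, included equal counts, as did that in replicate 1, 0.873 to 1.46.

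Among fate and subtype partners, 6 of 12 passed. *hth*, which marks R7 and R8 of the dorsal rim and is also on in the brain, had 154 ± 21.9 CPM, *svp*, an outer photoreceptor factor, 10.2 ± 6.91 CPM and *salr* 7.86 ± 2.05 CPM (SD, n = 4). *ro*, a homeodomain gene of the developing eye disc, had 0 counts in every replicate. *tgo*, which encodes the partner of Spineless in DNA binding, had 157, 8, 25 and 66 counts. The ratio of *tgo* to *ss* was 12.1 in replicate 1 and 11 in replicate 4, and 1.92 in replicate 3, where the exact interval of 0.947 to 4.09 included equal counts.

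In the Hippo pathway, 8 of 11 genes other than *wts* passed. *sd*, the DNA-binding partner of the coactivator Yorkie, had 156 ± 11.7 CPM, the kinase gene *Tao* 121 ± 33.0 CPM and *jub*, whose product binds Warts, 41.6 ± 8.34 CPM (SD, n = 4). By its mean of 132 CPM, *wts* lay between *sd* and *Tao*. *hpo*, the kinase upstream of Warts, had 43, 13, 0 and 44 counts, and *yki*, the gene of Yorkie, 105, 19, 2 and 194 counts. In every replicate *wts* was above both. Of the BMP and Activin genes, 8 of 9 passed, led by *Smox*, the Activin signal transducer, at 272 ± 42.0 CPM, the receptor gene *babo* at 50.4 ± 17.7 CPM and the ligand gene *daw* at 27.4 ± 12.5 CPM (SD, n = 4).

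**Figure D4:**
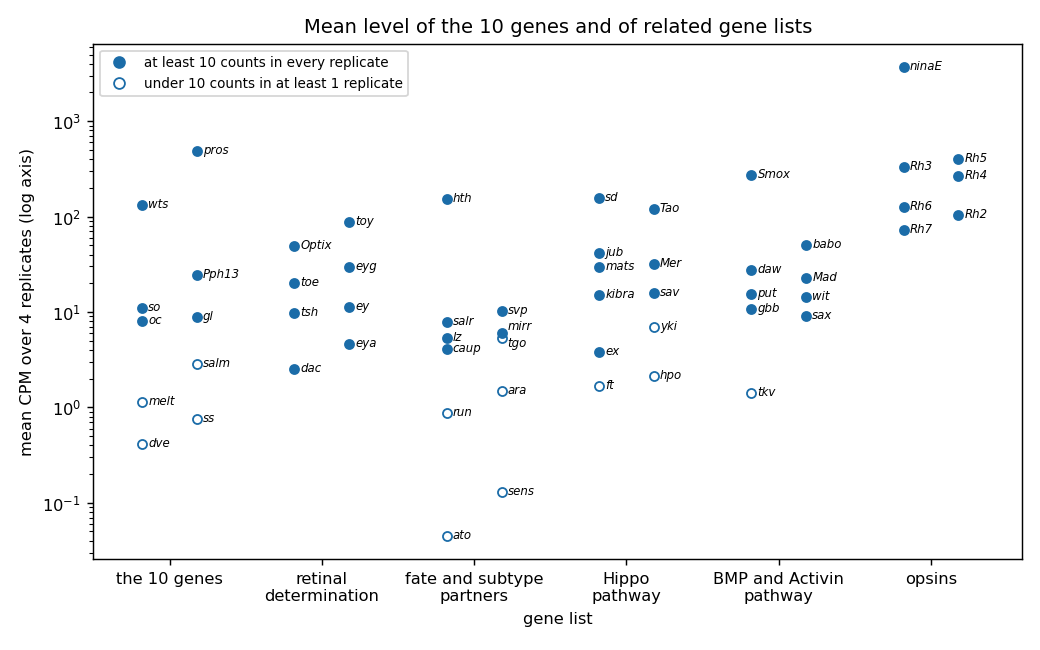
Mean CPM over 4 replicates (log axis) of the 10 genes, of 4 related lists and of the opsins, with filled circles for genes that reached 10 counts in each replicate and open circles for the others. *wts*, at 132 CPM, lies among *Tao*, *hth* and *sd*, *pros* lies above every gene of the 4 lists, and *ss* and *dve* are among the lowest. *ro*, at 0 in every replicate, is not drawn.

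Likeness of level profile was taken as the mean absolute difference in log2(CPM + 1) over the 4 replicates, among 47 genes of these lists and the opsins. *Tao* was nearest to *wts*, at 0.19, followed by *hth* at 0.22. *sax* was nearest to *gl*, at 0.18, and *gbb* came next, at 0.29. *ey* was nearest to *so*, at 0.41, and *salr* to *oc*, at 0.39. *Mad* was nearest to *Pph13*, at 0.31. The nearest gene to *pros* was *Smox*, at 0.85. The measure compares levels as well as their pattern over replicates, and 4 replicates give little of the latter.

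Some of the 10 genes also act in tissues that were uneven between libraries. *dve* was highest in replicate 1, where midgut markers were at 5.71 times the mean of the other replicates. Their sum was lowest in replicate 2, at 145 CPM against 192 CPM in replicate 3, while *dve* had 4 counts in replicate 2 and 0 in replicate 3. Of the 12 midgut markers, 8 passed, and 4 were at 0 in replicate 3 and none in the others. The part of midgut RNA in the counts of *dve* was not tested. For *pros*, 8 of 8 enteroendocrine peptide genes, which are also neuronal, passed the minimum and summed to 274 to 406 CPM. Their ratio in replicate 1 was 1.11 and that of *pros* 0.979. *salm* also specifies flight muscle. Flight muscle markers, of which 3 of 5 passed, summed to 1582, 1476, 1187 and 969 CPM in replicates 1 to 4. *Mlp60A* alone made up 844 to 1365 CPM of this sum, so the order of the sum mostly follows that gene. The sum was highest like *salm* in replicate 1 but lowest in replicate 4, where *salm* was at its second highest level. *Act88F*, at 283, 35.4, 6.74 and 38.3 CPM, had the same order of replicates as *salm*. *TpnC41C*, at 51.2, 74.9, 5.48 and 83.5 CPM, was lowest like *salm* in replicate 3 but highest in replicate 4. Of the 5, 1 was at 0 in replicates 2 and 3. The mean of *salm* without replicate 1 was 2.19 CPM, and the part of muscle RNA was not tested. For *ss*, 3 of 6 antenna markers passed and none was at 0, and the list summed to 1025 to 1703 CPM. Of this sum the odorant-binding protein gene *Obp19d* made up 989 to 1645 CPM. The 3 markers that did not pass had low means, of 1.07 to 3.76 CPM, so the sum says little about the other markers. The part of antennal RNA in the counts of *ss* was not tested. Glia markers, of which 6 of 6 passed, were highest in replicate 1, at 3425 CPM, against 1735 to 2381 CPM. Their part in the counts of *pros* was not tested. Male accessory gland markers, at 592, 7.01, 17.6 and 107 CPM in replicates 1 to 4, and head fat body markers, at 1063 to 2471 CPM, were uneven too, and no role of the 10 genes in these tissues was considered. Midgut, male accessory gland and flight muscle are not head tissues, and the sums of their markers were highest in replicate 1. The part of RNA from outside the head in that library was not tested.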

How the data were processed

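3′-seq libraries (QuantSeq REV) were made from 10 ng of total RNA from adult wild-type heads, 4 replicates of 1 group. After poly(A) trimming with fastp, the authors mapped reads to dm6 with STAR 2.6.1b without introns and deposited raw counts per gene from featureCounts, not normalized. The strand setting, annotation and treatment of reads with several map positions are not given in the sources used here.

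Gene identifiers were matched to symbols and Ensembl annotation, with 13513 of 13608 found. Counts were divided by library totals (CPM). Shares have 95% Wilson intervals and ratios of counts exact binomial (Clopper-Pearson) intervals. The spread was fitted with edgeR 4.0.16 in R 4.3.3 (TMM, intercept only, mean of at least 10 counts). DESeq2 1.42.0 gave alternative size factors. The remaining computations ran under Python 3.11.15 with pandas 2.3.3 and scipy 1.17.1. Replicates differed by more than sampling noise in every pair.

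The genes and lists were chosen with earlier results of these data known. Named besides the 10 genes were each opsin, up to 3 of the most abundant genes of a list, genes at 0 throughout and the nearest genes by profile. *eya*, *tgo*, *hpo* and *yki* were chosen after their values were seen, and so were *TpnC4* and *fln*, which complete the flight muscle list. *Med* matched no identifier.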

Additional observations from a re-analysis of the deposited data

Results flagged for a closer look

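Of 25 sets of 4 replicate values (the 10 genes, their sum and the lists), 1 held a value past Dixon's 95% critical value for 4 samples, a ratio of the end value's gap to the range. Chance gives about 1.25 of 25. That value was the sum of midgut markers in replicate 1, which was 1045 CPM where the other libraries had 145, 192 and 212 CPM, a ratio of 0.926. None of the 10 genes, *oc* in replicate 4 included, was set apart by this rule.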

How the results depend on the processing

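The mean level of each of the 10 genes changed by at most 1.11-fold, within 1 SD, under TMM, DESeq2 size factors and scaling by photoreceptor markers. Leaving out each replicate in turn moved 1 of 40 means by more than 1.5 times, that of *melt*, from 1.13 to 0.695 CPM without replicate 4. The summed level, 676 CPM, ranged from 667 to 698 CPM over all alternatives. All 10 genes had a count in any replicate, 7 had at least 1 count in every replicate, and 6 to 7 passed 10 counts with a replicate left out. There were 4 values of 0 and 8 under 10 counts, and 2 to 4 of 0 with a replicate left out, 2 without replicate 2 or 3. The median coefficient of variation, 0.483, ranged from 0.308 (without replicate 3) to 0.568 with a replicate left out. Summed counts gave a ratio of *wts* to *melt* of 106, against a mean of 51.2 over the replicates with *melt* counts, because they keep the libraries where *melt* was at 0. They gave 1.60 for *ss* to *dve*, against 0.767. The order of replicates under other scalings was examined after the data were seen: the lowest replicate of *pros* became replicate 1 under each, and that of *wts* did when scaled by photoreceptor markers. No paired analysis was possible because all samples form 1 group. *ss*, *dve* and *melt* had 5 to 13.5 counts on average, and the cause of their values of 0 was not tested.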
